A study of Mus musculus with 12 samples.

Results

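The 6 libraries from the reciprocal F1 hybrids of 2 inbred mouse strains were compared on total gene expression, that is, on the expression of a gene over both of its alleles. The libraries were taken as the label gives them, 3 of F1 B6xCast and 3 of F1 CastxB6, out of 12 libraries in the series, and the genes were the 13925 of 34964 autosomal genes that had a total of at least 10 count equivalents in 3 or more F1 libraries. F1 B6xCast mice had a C57BL/6J (B6) father and a Cast/EiJ (Cast) mother, and F1 CastxB6 mice had a Cast father and a B6 mother. All libraries were made from polyadenylated RNA of retinas from males aged 8 weeks, each from a pool of 6 to 8 retinas, so differences between single animals were averaged within a library. F0 C57BL/6J and F0 Cast/EiJ libraries, 3 of each, gave the strain difference and were not part of the comparison. A count equivalent is the estimate of the read pairs of a gene that the quantification program MMSEQ made after dividing ambiguous reads among genes and alleles, and the total of a gene was the mean of its B6 and Cast allele values.

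The autosomes of the 2 crosses carry the same alleles, so the comparison asks whether the direction of the cross changes the amount of RNA from a gene. Reciprocal hybrid males differ in what a single parent transmits. The mitochondrial genome and the X chromosome come from the mother, the Y chromosome comes from the father, and at imprinted genes the allele that is expressed is set by the parent it came from. The mitochondrial genome encodes subunits of the respiratory chain, which the photoreceptors of the retina use heavily, and over evolutionary time pieces of it have been copied into the nuclear chromosomes. These nuclear copies are mostly annotated as pseudogenes, and short reads from mitochondrial RNA can match them. Maternal lineage, mitochondrial genome, sex chromosomes and direction of the cross change together in this design and cannot be told apart.

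The sequences show how closely 3 of the genes with the largest differences resemble mitochondrial genes. For each, the stretch of 60 bases without gaps that had the most differences in the alignment is shown in the reference genome (NCBI37, B6) above the matching stretch of the mitochondrial genome of the same build, both read along the plus strand of the mitochondrial genome, and capitals mark the bases that differ. Even in these most divergent stretches, 4 to 11 of 60 bases differed. The nuclear stretches lie at chr2:22444413-22444472 (minus strand) in Gm13340, chr2:22442962-22443021 (minus strand) in Gm13341 and chr4:79649484-79649543 (plus strand) in Gm11408, each inside the single annotated exon of its pseudogene.
Gm13340: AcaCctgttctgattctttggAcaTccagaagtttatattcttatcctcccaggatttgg
mt-Co1: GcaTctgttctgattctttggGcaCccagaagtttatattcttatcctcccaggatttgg
Gm13341: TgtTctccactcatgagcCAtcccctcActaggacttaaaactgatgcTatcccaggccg
mt-Co2: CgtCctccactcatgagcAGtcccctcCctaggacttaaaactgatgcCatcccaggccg
Gm11408: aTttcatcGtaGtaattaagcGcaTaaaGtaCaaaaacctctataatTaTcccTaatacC
mt-Nd6: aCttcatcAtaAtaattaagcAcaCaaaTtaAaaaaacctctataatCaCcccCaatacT

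The libraries held 8808577 to 12363291 unique hits, read pairs that could be assigned to a single gene and allele, and the authors' scaling brought the summed totals to between 13046915 and 13498303 count equivalents. Rod photoreceptor markers made up 953060 to 1010000 count equivalents of each library. Markers of tissue next to the retina were low, with summed totals of 189 to 410 for the retinal pigment epithelium (Mlana at or below 3 in every library) and 507 to 681 for the lens (Cryga and Lim2 at or below 3). Replicate 1 of F1 B6xCast stood apart: over the 13038 genes with a mean of at least 10 unique hits, the first principal component took 39.6% of the variance, with a loading of 0.90 for this library and of -0.29 to -0.04 for the other 5. Over all 13925 tested genes it took 33.0%, with 0.71 for this library, 0.18 and 0.21 for the other F1 B6xCast libraries and -0.46 to -0.31 for F1 CastxB6. Its summed cytosolic ribosomal protein genes were at 100350 count equivalents against 128070 to 141130 in the other libraries. Results that rest on it are therefore given with and without it.

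Total expression of autosomal genes was nearly the same in the 2 crosses. In 5 of the 13925 genes (0.0359%) the difference passed an adjusted p of 0.05 (limma-trend on log2 of the total plus 1, Benjamini-Hochberg adjustment over all genes tested), and all 5 were higher in F1 B6xCast. These were the nuclear copies of mitochondrial genes Gm13340, Gm13341, Gm11407 and Gm11408, and Aqp3, which encodes a water and glycerol channel. All 5 met the minimum total for the test through the F1 B6xCast libraries alone, a minimum that either cross could meet. With no filter on low totals, all 5 passed as well. Unadjusted p was under 0.05 in 613 genes (4.40%), 285 of them higher (2.05%) and 328 lower (2.36%) in F1 B6xCast. The 3 and 3 libraries did not overlap in 1486 genes (10.7%), 722 higher (5.18%) and 764 lower (5.49%). The median absolute log2 difference was 0.07 and the median standard error 0.09. The 95% confidence interval lay within a 2-fold change in either direction (log2 of -1 to 1) for 95.8% of the genes and within a 1.5-fold change for 84.0%. Without replicate 1 of F1 B6xCast, 12 genes passed, 6 of them higher and 6 lower, and the 5 genes were among them. The lower genes included Camk1d, 4930481A15Rik, Tmsb10, Ndufa2 and Gm8759, and the additional higher gene was Zdbf2. Leaving out any other library gave 4 to 7.

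**Figure D1:**
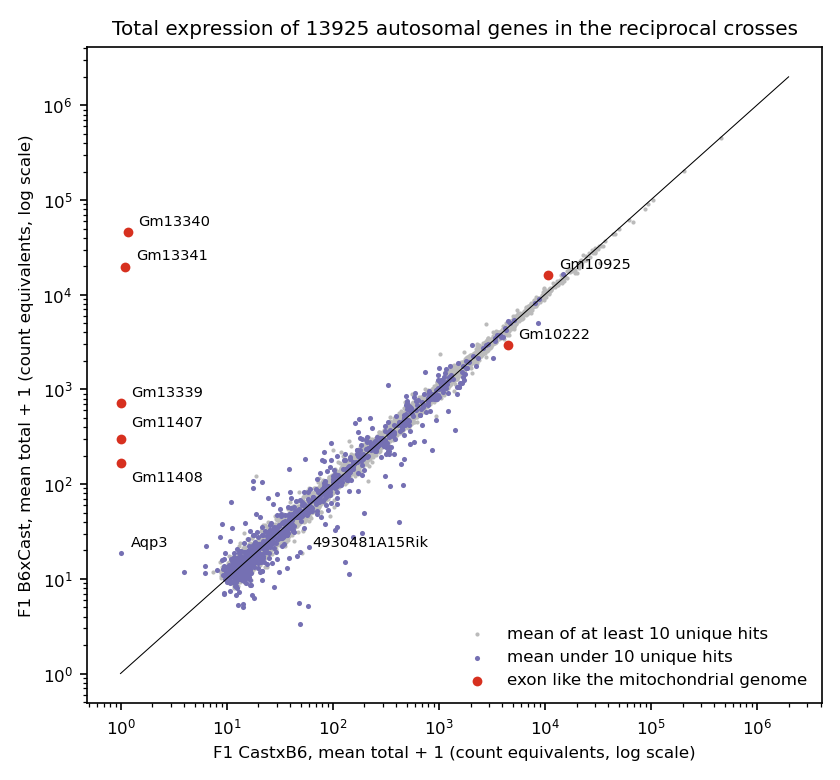
Mean total expression of each tested autosomal gene in F1 CastxB6 (x axis) and F1 B6xCast (y axis), 3 libraries each, in count equivalents plus 1 on log axes. The line marks equality. Most genes lie on the line, genes with few unique hits (purple) scatter more widely, and 5 genes with an exon like the mitochondrial genome and Aqp3 stand at the left edge, near 0 in F1 CastxB6.

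Gm13340 (ENSMUSG00000083563, chr2:22443623-22445167, minus strand) is a nuclear copy of mt-Co1, a catalytic subunit of cytochrome c oxidase. Its total was 49850, 46100 and 42550 count equivalents in the 3 F1 B6xCast libraries and 0.124, 0.246 and 0.144 in the F1 CastxB6 libraries. The 3 high libraries were close to each other and the 3 low ones were near 0. Against a floor of 3 count equivalents in each library Gm13340 was at least 15400-fold higher in F1 B6xCast (adjusted p = 4.59e-10, limma). Gm13341 (ENSMUSG00000083863, chr2:22442811-22443482, minus strand), the neighbouring copy of the cytochrome c oxidase subunit gene mt-Co2, had totals of 24700, 17935 and 16950 in F1 B6xCast and 0.0772, 0.174 and 0.0842 in F1 CastxB6, at least 6620-fold higher (adjusted p = 2.32e-08, limma). Neither gene had a unique hit in any F1 library, and the deposited table marks both as nonpolymorphic, that is, without a known variant between the strains. In F0 libraries, where alleles need not be told apart, Gm13340 had 23973 to 31157 unique hits in Cast and 7 to 14 in B6.

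On chromosome 4, Gm11407 (ENSMUSG00000082179, chr4:79648235-79649292, plus strand) and Gm11408 (ENSMUSG00000083076, chr4:79649300-79649818, minus strand) are adjacent copies of mt-Nd5 and mt-Nd6, which encode subunits of respiratory complex I. Gm11407 had totals of 327, 307.5 and 251 count equivalents in F1 B6xCast and at most 0.0102 in F1 CastxB6, at least 98.4-fold higher (adjusted p = 1.83e-06, limma). Gm11408 had totals of 157.5, 177.5 and 158 in F1 B6xCast and was below 0.001 in each F1 CastxB6 library, at least 54.8-fold higher (adjusted p = 3.04e-06, limma). Both genes also separated on unique hits. Gm11408 had 339, 460 and 290 unique hits in F1 B6xCast and 0, 0 and 0 in F1 CastxB6, and Gm11407 had 20, 30 and 19 against 0, 0 and 0. The 2 neighbours were assigned to opposite alleles. In F1 B6xCast the whole of Gm11407 stood on the Cast allele (654, 615 and 502 count equivalents, at most 0.000985 on B6), whereas the whole of Gm11408 stood on the B6 allele (315, 355 and 316, under 0.001 on Cast).

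The third neighbour on chromosome 4, Gm11410, had totals of 13.6, 12.0 and 8.48 in F1 B6xCast and did not reach the minimum for the test on totals. On unique hits it had 27, 32 and 14 in F1 B6xCast and 0 in each F1 CastxB6 library. Gm13339 (chr2:22445544-22446053), a copy of the complex I gene mt-Nd2 beside Gm13340, had totals of 1395, 700 and 62.6 in F1 B6xCast and at most 0.00445 in F1 CastxB6. All 3 libraries of 1 cross were above all 3 of the other, but the libraries of F1 B6xCast differed 22.3-fold among themselves and the gene did not pass (log2 difference 8.63 ± 1.03 (SE), adjusted p = 0.12, limma).

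Likeness to the mitochondrial genome was searched for in the exons of the tested genes. An exon of 7 of the 13890 tested genes with annotated exons (0.0504%) matched the mitochondrial genome at 90% identity or more over at least 100 bases. These 7 included 4 of the 5 called genes. Gm13340 matched mt-Co1 at 97.6% over 1545 bases, Gm13339 matched mt-Nd2 at 96.7% over 510 bases, and Gm13341 matched mt-Co2 at 95.9% over 684 bases. Gm11408 matched mt-Nd6 at 93.6% over 519 bases and Gm11407 matched mt-Nd5 at 92.3% over 1058 bases. The remaining 2 of the 7 were identical to mitochondrial sequence, and their libraries overlapped between the crosses. Gm10925 on chromosome 1, identical to the region of mt-Atp6 over 588 bases, had totals of 19750, 16500 and 11950 in F1 B6xCast and 10620, 12350 and 9490 in F1 CastxB6. Gm10222, identical to the region of mt-Nd4l over 297 bases, ranged from 3.89 to 8290 in F1 B6xCast and from 2310 to 7125 in F1 CastxB6. The 5 genes with 92.3 to 97.6% identity were thus near 0 in every F1 CastxB6 library. The 2 with full identity were assigned reads in both crosses, down to 3.89 for Gm10222. Over the matched bases their reads cannot be told apart from mitochondrial reads, so expression of these 2 nuclear copies is not shown.

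The F0 strains showed the same division. Gm13340 was at 15.7, 7.03 and 8.11 count equivalents in F0 C57BL/6J and 50000, 41600 and 44200 in F0 Cast/EiJ. Gm11408 was below 0.001 in each F0 C57BL/6J library and at 142, 133 and 150 in F0 Cast/EiJ. Each of the 5 called genes was higher in F0 Cast/EiJ than in F0 C57BL/6J, and in each the hybrids with a Cast mother stood at the level of the Cast strain and those with a B6 mother at the level of the B6 strain or below it. For Gm13340 and Gm13341 the F1 CastxB6 libraries, at under 0.25, were lower than F0 C57BL/6J, at 7.03 to 15.7. The F0 values were used as a description, with no test.

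**Figure D2:**
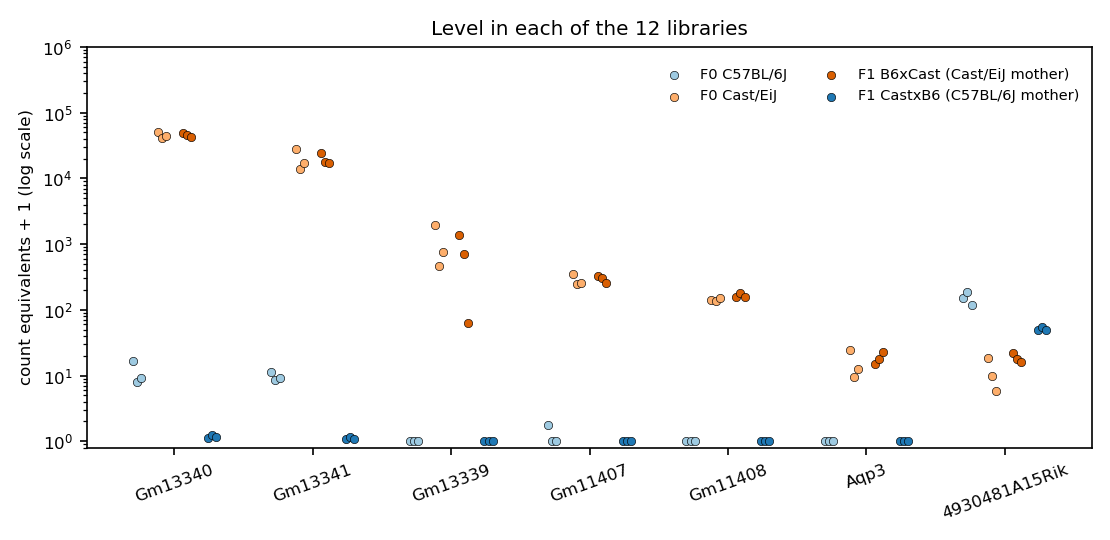
Level of 7 genes in each of the 12 libraries, in count equivalents plus 1 on a log axis, with 3 points for each strain or cross. For the 5 nuclear copies of mitochondrial genes and Aqp3, F1 B6xCast lies beside F0 Cast/EiJ and F1 CastxB6 lies near 0, while 4930481A15Rik is lowest in the groups with a Cast mother or Cast parents.

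Mitochondrial genes themselves differed in the opposite direction. They were not part of the autosomal test and were tested in a fit over all chromosomes. Of 15 mitochondrially encoded genes tested, 9 passed (60.0%), all lower in F1 B6xCast. Their summed total was 285752, 229144 and 219118 count equivalents in F1 B6xCast and 673481, 728380 and 623174 in F1 CastxB6, so that the B6-mother cross was 2.76-fold higher and the 2 ranges were far apart. The most abundant, mt-Co1, was at 57217 ± 9553.1 (SD, n = 3) in F1 B6xCast and 165500 ± 9013.9 (SD, n = 3) in F1 CastxB6 (log2 difference -1.54, adjusted p = 0.00272, limma). mt-Cytb, the core subunit of complex III, was at 21998 ± 5647.4 (SD, n = 3) and 91933 ± 7544.9 (SD, n = 3) (log2 difference -2.09, adjusted p = 0.00398, limma), and mt-Co3 was at 34462 ± 3032.8 (SD, n = 3) and 69617 ± 6929.9 (SD, n = 3) (log2 difference -1.01, adjusted p = 0.00893, limma).

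The size of the difference varied from gene to gene along the same small genome. The complex I gene mt-Nd3 was below 0.11 in every F1 B6xCast library and at 4148, 4255 and 2915 in F1 CastxB6, whereas mt-Nd1, another complex I gene, was at 6834, 6350 and 5940 against 47600, 52000 and 43950 (log2 difference -2.91, adjusted p = 7.5e-06, limma). mt-Nd4 had a log2 difference of -0.66 (adjusted p = 0.825, limma) and the ribosomal RNA genes mt-Rnr2 and mt-Rnr1 had -0.65 and 0.26 (adjusted p = 0.129 and 0.888, limma). mt-Nd4l varied widely among libraries of the same cross, from 1596 to 8569 in F1 B6xCast and from 280 to 4299 in F1 CastxB6. None of the 15 genes had a unique hit in an F1 library. A read without a strain variant matches both alleles and cannot be a unique hit there, whether or not it also matches another gene. The lack of unique hits therefore does not show how far these totals rest on the division of reads among genes, which was not tested. The chromosome 4 copies separated on unique hits, though Gm11407 had a mean of only 11.5 per F1 library. When the 7 genes with mitochondrial likeness were added to the mitochondrial genes, the sums were 382400, 319154 and 291044 in F1 B6xCast and 691226, 744711 and 634974 in F1 CastxB6, still 2.09-fold apart. In F0 libraries, C57BL/6J had 2.84-fold more mitochondrial count equivalents than Cast/EiJ, and 14 of the 15 genes had the sign of the F1 difference.

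**Figure D3:**
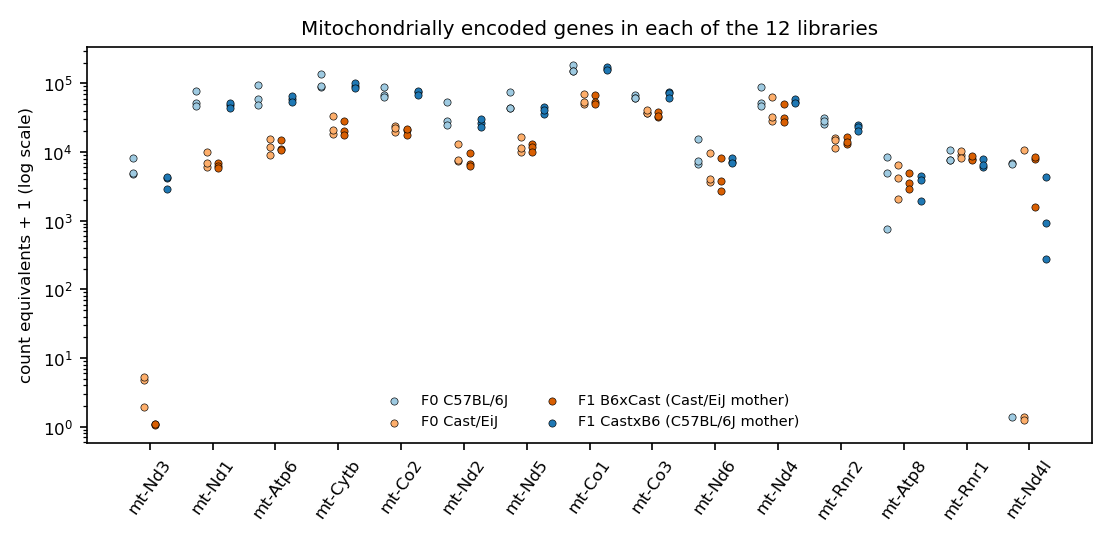
The 15 mitochondrially encoded genes in each of the 12 libraries, ordered by the difference between the crosses, in count equivalents plus 1 on a log axis. The libraries with a Cast mother or Cast parents (orange) lie below those with a B6 mother or B6 parents (blue) for the genes on the left, with mt-Nd3 near 0, and mix for mt-Atp8, mt-Rnr1 and mt-Nd4l on the right.

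Aqp3 (ENSMUSG00000028435, chr4:41039755-41045216, minus strand) was the only called gene without a match to the mitochondrial genome, in its exons or in its whole span of 5462 bases. Its total was 13.95, 16.6 and 22.1 count equivalents in F1 B6xCast and at most 0.00299 in F1 CastxB6, at least 5.85-fold higher (log2 difference 4.19 ± 0.31 (SE), adjusted p = 0.00754, limma). Unlike the chromosome 4 pseudogenes, it was present on both alleles of F1 B6xCast, with 12.1, 12.4 and 23.4 on B6 and 15.8, 20.8 and 20.8 on Cast. It had 9, 16 and 15 unique hits in F1 B6xCast and none in F1 CastxB6, where a count of 0 allows up to 3. F0 Cast/EiJ had 23.4, 8.35 and 11.7 count equivalents and F0 C57BL/6J at most 0.00681, so a B6 allele that was at 0 in the B6 strain had reads in the hybrid with a Cast mother. The gene is low, and its call on totals was lost under 5 alternatives: edgeR on rounded totals (adjusted p = 0.184), the replicate block (0.202) and, with limma, without F1 B6xCast replicate 2 (0.0843), F1 B6xCast replicate 3 (0.0829) or F1 CastxB6 replicate 1 (0.0502). On unique hits, Aqp3 was not among the calls of the main test. It passed there in edgeR with no filter on low counts (log2 difference 6.81, adjusted p = 6.94e-05).

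On unique hits, which do not depend on how ambiguous reads are divided, 4 of 13562 autosomal genes (0.0295%) passed in edgeR's quasi-likelihood test, and 619 genes (4.56%) had an unadjusted p under 0.05. The 3 higher genes (0.0221%) were the chromosome 4 pseudogenes Gm11408 (adjusted p = 1.53e-07, edgeR), Gm11407 (adjusted p = 0.00531, edgeR) and Gm11410. The 1 lower gene (0.00737%) was 4930481A15Rik on chromosome 19, with 25, 25 and 16 unique hits in F1 B6xCast and 68, 61 and 65 in F1 CastxB6 (log2 difference -1.44, adjusted p = 0.0182, edgeR). Without replicate 1 of F1 B6xCast 42 genes passed, 31 of them higher, and leaving out any other library gave 1 to 4.

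On totals, 4930481A15Rik did not pass (17.7 ± 3.07 against 50.3 ± 3.58 count equivalents (SD, n = 3), log2 difference -1.46, adjusted p = 0.0736, limma). On totals it passed when only genes with a mean of at least 10 unique hits were tested (adjusted p = 0.0408, limma), with robust limma (0.0384) and with DESeq2 (0.0172). The difference was on the B6 allele. It stood at 36.1, 24.3 and 28.4 in F1 B6xCast, where it came from the father, and at 90.9, 100 and 88.8 in F1 CastxB6, where it came from the mother (log2 difference -1.64, adjusted p = 0.013, limma on the B6 allele). The Cast allele was at 2.27 to 9.01 in all 6 libraries, too low to show a difference of the same size. F0 C57BL/6J had 151, 183 and 119 count equivalents and F0 Cast/EiJ 17.7, 8.72 and 4.88.

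Large differences were concentrated in genes with few unique hits. Of 121 genes with more than a 2-fold difference in total, 113 were among the 887 genes with a mean under 10 unique hits (12.7% of them) and 8 were among the 13038 others (0.0614%). In 71 of the 121, no F1 library had a unique hit. Of the 121, 33 had an unadjusted p under 0.05 (4.40% over all tested genes). In 29 the libraries did not overlap between the crosses (10.7% over all tested genes). The 121 were chosen on the same difference, so these counts add no separate support. The complex I subunit gene Ndufa2, with no unique hit, was at 83.8, 22.4 and 10.2 in F1 B6xCast and 459, 363 and 456 in F1 CastxB6 (log2 difference -3.91, adjusted p = 0.592, limma). In the F0 libraries, where reads need not distinguish alleles, Ndufa2 was at 358 to 592 over both strains. Tmsb10, an actin-sequestering protein gene, was 1.78-fold lower on totals in F1 B6xCast (log2 difference -0.84, adjusted p = 0.166, limma) but not on unique hits (log2 difference 0.24, unadjusted p = 0.355, edgeR), and the motor protein gene Kif24 was at 102, 85.5 and 136 against 236, 190 and 217 on totals, with a log2 difference of 0.05 on unique hits. On rounded totals, Ndufa2, Tmsb10 and Kif24 passed with DESeq2 (adjusted p = 0.0245, 1.21e-07 and 0.00251). None of them passed with edgeR on the same totals.

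The 8 genes with more than a 2-fold difference and a mean of at least 10 unique hits were Gm11407, Gm11408, 4930481A15Rik, Kif24, Dio2, Col7a1, Ccr9 and Wdr62. Dio2, which activates thyroid hormone, was at 1860, 3110 and 2160 count equivalents in F1 B6xCast and 1480, 936.5 and 684 in F1 CastxB6. The groups did not overlap and both alleles had the same difference (1.24 on B6 and on Cast), but the libraries of a cross varied widely and the gene did not pass (log2 difference 1.24 ± 0.30 (SE), adjusted p = 0.919, limma). Without F1 B6xCast replicate 1 it passed on unique hits (log2 difference 1.32, adjusted p = 8.09e-08, edgeR). Ccr9, a chemokine receptor gene, rested on a single library, with 326 in F1 B6xCast replicate 1 and 15.6 to 22.7 in the other 5.

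Some smaller differences on totals were tight within each cross without passing in limma. Pax6, a transcription factor of the amacrine, ganglion and horizontal cells, was at 6280, 5800 and 5910 count equivalents in F1 B6xCast and 4940, 5075 and 4930 in F1 CastxB6 (log2 difference 0.27 ± 0.05 (SE), adjusted p = 0.594, limma), with 0.26 on the B6 and 0.27 on the Cast allele. Its F0 values were 4910 to 4920 in C57BL/6J and 5770 to 6260 in Cast/EiJ. Pax6 passed on totals with DESeq2 (adjusted p = 0.00364). Bmf, a pro-apoptotic member of the Bcl2 family, was at 128, 124 and 125 against 179, 177 and 198 (log2 difference -0.55, adjusted p = 0.166, limma), and its B6 allele moved more (-0.70) than its Cast allele (-0.16). Igsf21 was at 671.5, 691.5 and 699 against 581, 541 and 520 (log2 difference 0.33, adjusted p = 0.608, limma). Without F1 B6xCast replicate 1, all 3 passed on unique hits (adjusted p = 0.0131 for Pax6, 0.0229 for Bmf and 0.00463 for Igsf21, edgeR). These genes were singled out after their values were seen. Over all tested genes, the cross difference had the sign of the strain difference (F0 Cast/EiJ minus F0 C57BL/6J) in 53.1%, and among the 613 genes with an unadjusted p under 0.05 in 57.1%.

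Imprinted genes exchanged their alleles between the crosses, with far smaller differences in their totals. Tested allele by allele over 13038 polymorphic genes, 32 genes (0.245%) differed on the B6 allele and 33 (0.253%) on the Cast allele. Of the 37 genes called on either, 28 were called on both, in all 28 with opposite signs, and 29 of the 37 were members of a list of known imprinted genes. On total expression none of the 29 passed, their median absolute log2 difference was 0.12 and the largest was 0.76. Peg3, a paternally expressed zinc finger gene, had 10473 count equivalents on the B6 allele in F1 B6xCast and 4.82 in F1 CastxB6, and 16.6 and 10100 on the Cast allele. Its total was 5606, 4919 and 5209 against 4750, 5154 and 5253 (log2 difference 0.05 ± 0.06 (SE)). Meg3, a maternally expressed noncoding RNA, had 142 and 34733 on the B6 allele and 35733 and 112 on the Cast allele, with a log2 difference in total of 0.02 ± 0.13 (SE). For Rtl1, whose maternal allele carried the reads here, reads from the overlapping antisense transcript cannot be told apart, since the libraries did not keep the strand.

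**Figure D4:**
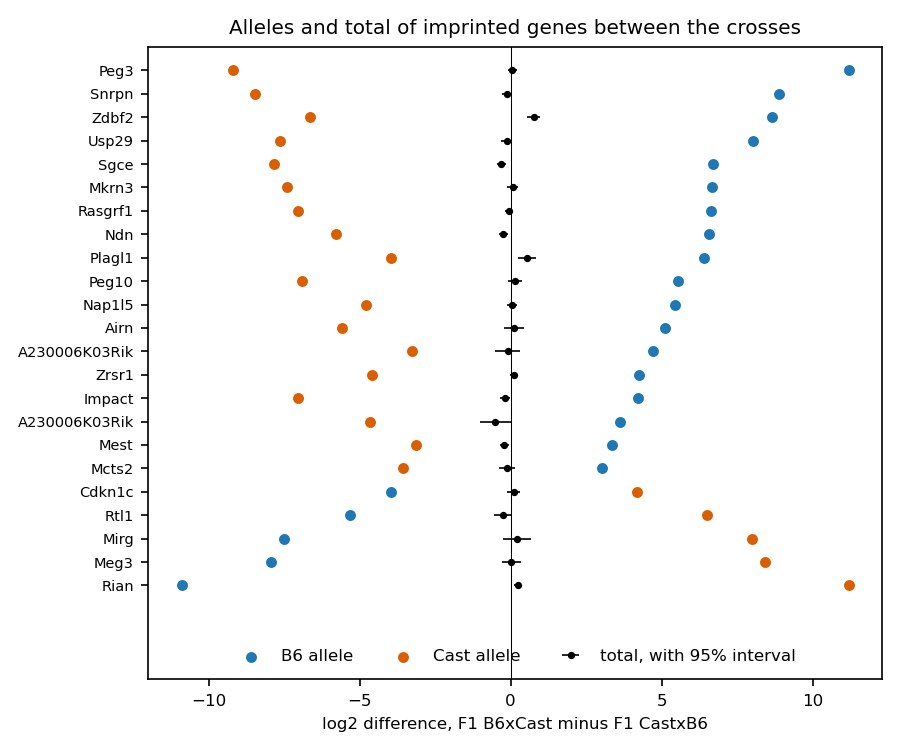
Difference between the crosses (F1 B6xCast minus F1 CastxB6, log2) of the B6 allele, the Cast allele and the total for 23 imprinted genes called on at least 1 allele in which both alleles moved by more than 2. Bars on the totals are 95% confidence intervals (3 libraries against 3). The alleles lie far to either side of 0 and every total lies between -0.51 and 0.76.

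Within the list of imprinted genes, 11 of 51 tested members had an unadjusted p under 0.05 on total (21.6%, against 4.40% of all genes), 5 higher and 6 lower, and the list median was 0.02 (0.01 without F1 B6xCast replicate 1, -0.00 for all genes). Zdbf2, a paternally expressed gene, came nearest to passing. Its total was 225, 277 and 262 in F1 B6xCast and 143, 154 and 151 in F1 CastxB6 (log2 difference 0.76 ± 0.09 (SE), adjusted p = 0.12, limma), and it passed without F1 B6xCast replicate 1 (adjusted p = 0.0166, limma). The paternal allele carried this difference, with 435, 553 and 524 for the B6 allele in F1 B6xCast and 286, 308 and 301 for the Cast allele in F1 CastxB6. In F0 libraries Zdbf2 was likewise higher in C57BL/6J (212 to 272) than in Cast/EiJ (158 to 176). Plagl1, a paternally expressed zinc finger gene, had 615, 489 and 435 against 349, 336 and 363 (log2 difference 0.54, unadjusted p = 0.00324, limma), and the growth factor gene Igf2 had 631, 546.5 and 506 against 442, 385.5 and 439.5 (0.41, unadjusted p = 0.00408, limma). On unique hits, Plagl1 and Igf2 did not pass in edgeR (log2 difference 0.83 and 1.11, adjusted p = 0.341 and 0.14), but passed with DESeq2 (adjusted p = 0.000165 and 7.97e-06) and, in edgeR, with no filter on low counts (6.58e-05 and 6.73e-06) or without F1 B6xCast replicate 1 (7.63e-06 for each). Nap1l5, paternally expressed, had 0.04 on totals and 0.55 on unique hits, where it passed under the same 3 alternatives (adjusted p = 0.0305 with DESeq2, 0.00611 with no filter and 3.35e-08 without that library). On unique hits Zdbf2 passed with no filter (0.00917) and without that library (0.011), and Rian without that library (0.0449). In a paternally expressed gene, unique hits come mainly from the B6 allele in F1 B6xCast and from the Cast allele in F1 CastxB6. In a maternally expressed gene it is the reverse. The alleles can differ in how many of their reads are unique, and the part of this in these calls was not tested. Sgce, paternally expressed, had the opposite direction, with 181, 185 and 177 against 234, 223 and 217 (-0.31, unadjusted p = 0.00165, limma). Of the 23 genes with a large allele exchange, 8 had an unadjusted p under 0.05 on total, and in 6 of these 8 the total was higher in the cross whose expressed allele came from the strain with the higher F0 level. Over all 23, in which A230006K03Rik counts under 2 identifiers, this held for 12.

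X-linked genes, for which males of the 2 crosses differ in genotype, differed more often. In the fit over all chromosomes, 26 of 508 X-linked genes passed (5.12%), 18 higher (3.54%) and 8 lower (1.57%) in F1 B6xCast, against 11 of the 13925 autosomal genes (0.0790%) in the same fit. With the replicate number as a block 11 X-linked genes passed, and leaving out 1 library at a time gave 10 to 19. Mid1, a gene that spans the pseudoautosomal boundary of the B6 X chromosome, was at 380.5, 306 and 343 in F1 B6xCast and 1078, 1077 and 1054.5 in F1 CastxB6 (log2 difference -1.64, adjusted p = 0.000316, limma). Sms, which encodes spermine synthase, was at 2005, 1987 and 2040 against 985, 1105 and 1090 (0.92, adjusted p = 0.000803, limma). The difference had the sign of the strain difference in 24 of the 26 called genes and in 350 of all 508. Among the most abundant X-linked genes, Syp and Huwe1 had log2 differences of 0.00 and -0.02, neither past the threshold. None of the 4 Y-linked genes tested passed, with log2 differences of -0.08 for Eif2s3y, 0.24 for Ddx3y and -0.13 for Uty. Their 95% intervals were -0.41 to 0.24, -3.60 to 4.08 and -0.29 to 0.04.

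Nuclear genes that work with the mitochondrial genome were examined because the mitochondrial genome differs between the crosses. None of the 77 tested nuclear subunits of oxidative phosphorylation passed, 4 had an unadjusted p under 0.05 (5.19%, near the 4.40% of all genes), all lower in F1 B6xCast, and the list median was -0.06. These 4 were Ndufa2, Ndufb4, Ndufa7 and Uqcrq. Of 76 mitochondrial ribosomal protein genes 5 had an unadjusted p under 0.05, 2 higher and 3 lower, with a median of 0.00. Of 26 genes for maintenance and expression of mitochondrial DNA 1 did, with a median of -0.00, and of 21 mitochondrial stress response genes 1 did, with a median of -0.00. Among 18 genes for protein import into mitochondria there were 2, Timm10 and Tomm22, with a median of -0.01. Without F1 B6xCast replicate 1, the median of the oxidative phosphorylation subunits was 0.05, of the opposite sign, and that of the 72 cytosolic ribosomal protein genes went from -0.10 to 0.07.

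Cell type markers and state genes gave no called member. In bulk retina, fewer cells of a type and less RNA per cell cannot be told apart. List medians for rod, cone, bipolar, amacrine, ganglion, Mueller glia and microglia markers lay between -0.07 and 0.02 (-0.09 and 0.04 without F1 B6xCast replicate 1), with 1 rod, 1 cone and 1 amacrine marker at an unadjusted p under 0.05, all lower in F1 B6xCast (1 of 12, 7 and 9 tested, against 4.40% of all genes). Among the 12 rod markers the largest absolute log2 difference was 0.13. Horizontal cell markers had a median of -0.14, with Lhx1 at -0.38 and Prox1 at 0.13, both with an unadjusted p under 0.05. Lens markers (6 tested, median -0.50) and retinal pigment epithelium markers (8 tested, median -0.37, or -0.07 without F1 B6xCast replicate 1) had 2 (33.3%) and 1 (12.5%) members with an unadjusted p under 0.05, against 4.40% of all genes and all lower in F1 B6xCast, at summed levels of 507 to 554 against 535 to 681 and 189 to 410 against 263 to 410. Vascular (7 tested), blood (4) and muscle (3) markers had medians of -0.01, 0.11 and -0.07, and of 0.10, 0.12 and 0.08 without F1 B6xCast replicate 1. Of these, 1 vascular marker had an unadjusted p under 0.05, lower in F1 B6xCast. The part of these markers in the results was not tested.

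Immediate early genes, which respond to light and neural activity, had 5 of 25 tested members with an unadjusted p under 0.05 (20%, against 4.40% of all genes), all higher in F1 B6xCast, and a list median of 0.09. Fosl2 was at 182, 244.5 and 164.5 against 160.5, 116 and 99.95 (log2 difference 0.65), Nr4a3 at 70.4, 80.0 and 95.9 against 53.8, 59.8 and 26.9 (0.86), and Maff, Fosb and Nr4a1 had 0.81, 0.61 and 0.34. In each of the 5 genes all libraries of F1 B6xCast were above all of F1 CastxB6, and the adjusted p was 0.919 (limma). The 5 were chosen by p, which largely brings this separation with it, so it adds no support. Over the whole list the libraries did not overlap in 6 genes that were higher and 1 that was lower (5.18% and 5.49% of all genes). On unique hits, Fosl2 passed in edgeR with no filter on low counts (adjusted p = 0.014), and without F1 B6xCast replicate 1 Fosl2 (log2 difference 0.76, adjusted p = 0.00173) and Nr4a3 (1.15, adjusted p = 0.0499) passed in edgeR. Circadian clock genes had 3 of 24 (12.5%), all higher in F1 B6xCast, with a median of 0.08, or 0.04 without F1 B6xCast replicate 1. The period gene Per1 was at 2070, 1600 and 1730 against 1340, 1480 and 1400 (0.35), and Gm129 and Hlf had 0.36 and 0.20. Cholesterol synthesis genes had 3 of 22 (13.6%), all lower, with Srebf1, a regulator of lipid synthesis, at 1410, 1355 and 1730 against 1780, 2175 and 2200 (-0.45) and Dhcr7 at -0.18. Their median was -0.12, or -0.03 without F1 B6xCast replicate 1. Srebf1 passed on unique hits without that library (log2 difference -0.27, adjusted p = 0.0371, edgeR). Per the study's methods, collection was in the late evening for all samples, and the libraries shared sequencing lanes. Whether the crosses were dissected or prepared on the same days is not given in the sources used here, and its part in these values was not tested.

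In the remaining lists, an unadjusted p under 0.05 was found in none of 72 cytosolic ribosomal protein, 14 gliosis, 11 MHC class I and 19 glycolysis genes. It was found in 1 of 19 heat shock and chaperone genes (Bag3, 0.53), 1 of 18 interferon response genes and 1 of 14 genes of DNA methylation and imprint control (5.26%, 5.56% and 7.14%, against 4.40% of all genes). Medians of these lists lay between -0.10 and 0.06, against -0.00 for all 13925 genes. Without F1 B6xCast replicate 1 the median went from -0.02 to 0.05 for glycolysis and from 0.06 to 0.03 for MHC class I genes. It also changed sign for heat shock and chaperone genes (-0.02 to 0.05) and for gliosis genes (0.04 to -0.02).

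**Figure D5:**
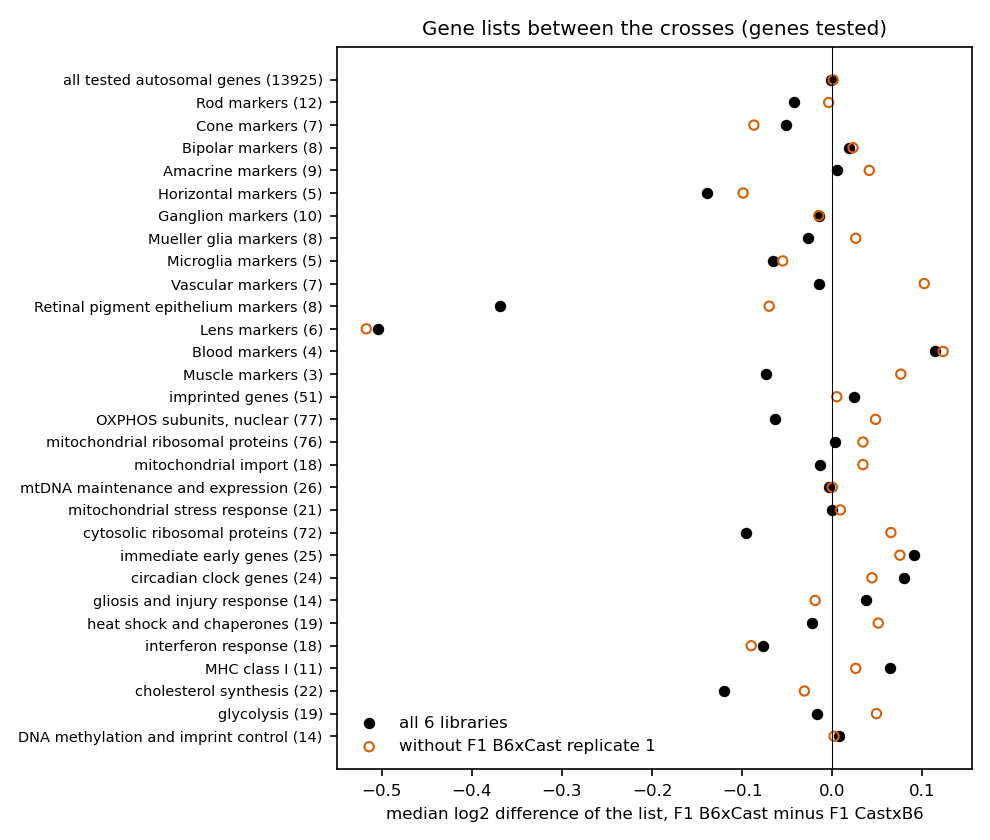
Median log2 difference between the crosses (F1 B6xCast minus F1 CastxB6) of each gene list, with the number of genes tested in parentheses, in all 6 libraries (filled) and without F1 B6xCast replicate 1 (open). Most medians lie within 0.15 of 0, and those of the nuclear oxidative phosphorylation and cytosolic ribosomal protein genes are among the medians that change sign when that library is left out.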

How the data were processed

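RNA-seq of retina was analysed from 12 libraries, 3 for each of 4 groups, and the 6 F1 libraries were compared. Per the authors' methods, paired reads of 101 bases (2 lanes for F1, 1 for F0) were trimmed with Trim Galore 0.2.6 and aligned with Bowtie 0.12.9 (versions also in the submitters' processing notes) to B6 and Cast transcriptomes built from Ensembl cDNA on NCBI37 (mm9) with known Cast variants, and quantified with MMSEQ. The deposited signal values are count equivalents, which the authors normalized between libraries. The deposited unique hits are raw counts of read pairs. The deposited natural log expression estimates were exponentiated, on a scale near FPKM, for 1 alternative. Of the authors' comparison table only the mark for nonpolymorphic genes was used. The other columns, with the authors' model values, were left out, 36 of them per sample, as were 18 columns of standard deviations.

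The total was the mean of both allele columns, for autosomal genes with at least 10 in 3 or more F1 libraries. F1 B6xCast was compared with F1 CastxB6 on log2(total + 1) with limma-trend 3.58.1 in R 4.3.3, so fold changes of low genes are understated, and unique hits with edgeR 4.0.16 (quasi-likelihood). The same limma fit served each allele (polymorphic genes, mean of at least 10 unique hits) and all chromosomes together. p-values were adjusted by Benjamini-Hochberg and called under 0.05. The fits were tested on simulated data. Exons (GENCODE annotation on NCBI37) were searched against the mitochondrial genome with BLAST 2.17.0. Unique hits range from 8808577 to 12363291 per F1 library. A group at or below 3 in every library was set to 3 for a fold, and such floors cover counting error only. Replicate numbers were not used as pairs in the main fit. Other settings (DESeq2 1.42.0 among them) are given in the closing section.

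By rule, the genes named were, in each direction, up to 10 called on total with a mean total of at least 50, no overlap and at least 10 unique hits in the same direction, the 5 largest differences among all called genes, called list members, the 3 most abundant X-linked, Y-linked and mitochondrial genes, and genes behind counts of 5 or fewer. The genes and lists were chosen with earlier results of these data known. Other named genes, and the comparison of list medians without F1 B6xCast replicate 1, were chosen after their values were seen. Some items withheld for evaluation are not reported here.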

Additional observations from a re-analysis of the deposited data

How the results depend on the processing

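The 5 calls on total expression became 22 with no filter on low totals, 18 with DESeq2 on rounded totals, 11 with all 12 libraries in 1 fit and 3 when only genes with a mean of at least 10 unique hits were tested, and 4 to 12 when 1 library was left out. All 5 genes were among the calls with no filter, with DESeq2 and with all 12 libraries. In the other settings (pseudocounts of 0.1 and 5, a minimum of 50, TMM, edgeR, robust limma, FPKM) there were 4 to 6 calls. Same-numbered libraries of the crosses did not deviate together (correlations of -0.13, -0.12 and -0.01). So few libraries cannot show whether those of the same number shared a batch, and the sources used here do not say. With the replicate block there were 4 calls on total, 1 on unique hits, 29 on the B6 allele, 30 on the Cast allele and 11 on the X chromosome. On unique hits the 4 calls became 11 with DESeq2 and 17 with no filter, and 1 to 42 when 1 library was left out, the 42 without F1 B6xCast replicate 1. On the X chromosome the 26 calls became 10 to 19 when 1 library was left out. With 1 library left out there were 29 to 33 calls on the B6 allele, 27 to 30 of them shared with the 32, and 27 to 34 on the Cast allele, 27 to 31 of them shared with the 33. No direction of the 5 called genes reversed. Of 29 list medians, 9 moved by more than the SD between replicates without F1 B6xCast replicate 1. The causes were not tested. There were 3 libraries in each cross. In genes without allele-specific reads, totals rest on reads that are ambiguous between alleles, between genes or both, and unique hits do not tell these apart.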
